A study of Mus musculus with 8 samples.

Results

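The matrilins are secreted adaptor proteins of the extracellular matrix, built from von Willebrand factor A domains, epidermal growth factor-like repeats and a coiled coil through which the subunits assemble into oligomers. They bridge collagen fibrils, aggrecan and cartilage oligomeric matrix protein. Matn1, long known as cartilage matrix protein, and Matn3 are classical products of cartilage, whereas Matn2 and Matn4 are also made in loose connective tissue. The family was taken by gene symbol as Matn1, Matn2, Matn3 and Matn4, 4 of the 28001 features counted in every library. All 4 members had UMIs (unique molecular identifiers, one per captured transcript) in every one of the 8 libraries.

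The libraries were 10x 3′ single-cell profiles of mouse forelimb from C57BL/6J embryos. The sorted cells carried Hic1CreERT2/CreERT2;Rosa26LSLtdTomato/tdTomato, an inducible Cre at the Hic1 locus and a Cre-dependent tdTomato reporter, and dams received 7.5 mg tamoxifen in 300 µL sunflower oil by gavage at embryonic day 10, so that the sorted tdTomato+ cells are descendants of cells that expressed Hic1 soon after that dose. One library each was made from tdTomato+ cells on each day from E11.5 through E14.5 and from the segment around the elbow at E16.5 (termed proximal here), together with an E16.5 distal library of the distal zeugopod and autopod. The remaining 2 libraries held the lineage-negative cells of whole E11.5 limbs, labelled as both tdTomato+ and tdTomato- (whole 1 and whole 2). Forelimbs of several embryos were pooled per sorted library, and cells bearing blood and endothelial surface markers were excluded, so neither an embryo-to-embryo spread nor the complete limb can be read from these data.

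Cells with at least 3000 UMIs and at most 10% mitochondrial UMIs were kept, 3165 to 11109 per library, with median depths from 6788 UMIs at E13.5 to 18473 in the E16.5 proximal library. Pairs of libraries shared 0 to 48 kept barcodes. Each sorted group is 1 library, the dissociation enzymes changed between E12.5 and E13.5 and the reagent kit between E13.5 and E14.5, and stage cannot be told apart from these changes. Sorted libraries up to E14.5 came from undivided forelimbs, whereas each E16.5 library came from a segment. At E16.5, stage therefore cannot be told apart from limb segment either. Levels below are CPM, a gene's UMI count summed over cells and scaled to a common total, with exact Poisson 95% intervals, which cover counting error only, and 3′ UMI counts do not scale with transcript length. Hic1 stood at 22.03 to 38.0 CPM in the sorted libraries and at 0.702 and 0.741 in the whole limb libraries, and tdTomato at 427 to 1340.6 against 3.88 and 4.21, so reporter-bearing cells were a small part of the whole limb libraries. In levels summed over cells, fewer cells of a type and less RNA per cell cannot be told apart, and for that reason levels per cell class follow the library levels.

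On the GRCm38 assembly, Matn1 (ENSMUSG00000040533) lies on the plus strand at chr4:130944385-130955475, with 8 exons in its longest coding transcript and 500 codons. Matn2 (ENSMUSG00000022324) spans chr15:34306677-34436273 on the plus strand, with 19 exons and 957 codons, and is the longest of the family. Matn3 (ENSMUSG00000020583) occupies chr12:8947929-8972028 on the plus strand, with 8 exons and 481 codons. Matn4 (ENSMUSG00000016995) is on the minus strand at chr2:164389393-164405160, with 11 exons and 624 codons. Matn4 overlaps Rbpjl on the opposite strand over 2020 bases, of which 63 lie in exons of the longest coding Matn4 transcript. Matn2 overlaps 9430069I07Rik, also on the opposite strand, over 8822 bases, of which 123 lie in exons of the longest coding Matn2 transcript. Exons of the overlapping genes were not compared.

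A set of 3 members is described further on as sharing chondrocyte-like cells, so the windows around their start sites are shown, from RefSeq on GRCm38.p6, each running 5′ to 3′ on the gene's own strand from 250 bases before to 50 bases after the start. Capitals mark the GC box core GGGCGG or its reverse complement CCGCCC, searched on both strands. The windows are chr4:130944135-130944434 (plus strand) for Matn1, chr12:8947679-8947978 (plus strand) for Matn3 and chr2:164404769-164405068 (minus strand) for the downstream of the 2 listed Matn4 starts. Matn2 is not among the promoter entries used here.
Matn1: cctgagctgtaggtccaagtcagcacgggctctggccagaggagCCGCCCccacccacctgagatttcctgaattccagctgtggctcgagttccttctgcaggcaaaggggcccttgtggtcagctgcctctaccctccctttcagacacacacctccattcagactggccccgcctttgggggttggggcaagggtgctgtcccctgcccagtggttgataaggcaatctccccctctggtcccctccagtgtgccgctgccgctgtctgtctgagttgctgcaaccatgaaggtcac
Matn3: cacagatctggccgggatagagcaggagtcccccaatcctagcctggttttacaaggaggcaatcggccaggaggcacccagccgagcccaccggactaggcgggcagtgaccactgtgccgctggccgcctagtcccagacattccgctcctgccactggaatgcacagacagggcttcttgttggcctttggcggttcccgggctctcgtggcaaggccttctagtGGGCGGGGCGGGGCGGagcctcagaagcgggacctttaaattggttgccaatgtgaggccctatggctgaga
Matn4: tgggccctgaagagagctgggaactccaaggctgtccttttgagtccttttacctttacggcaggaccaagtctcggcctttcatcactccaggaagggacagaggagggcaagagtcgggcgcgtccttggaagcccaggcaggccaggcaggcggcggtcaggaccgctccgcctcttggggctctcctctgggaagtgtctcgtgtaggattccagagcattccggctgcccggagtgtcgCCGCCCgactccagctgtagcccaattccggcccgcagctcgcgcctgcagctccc
Matn1 and this Matn4 window each held 1 GC box core, and Matn3 held 3 that overlap each other. The window of the upstream Matn4 start, which is the annotated 5′ end of the gene, held 0. GGGCGG was found in 35.7% of the 32851 mouse windows of this length, so its presence is common. ACAAT and ACAAAG, the core letters bound by SOX factors, and TATAAA, the TATA box, were in 0 of the 4 family windows and in 31.0%, 18.7% and 13.6% of all windows. A missing match says only that these letters are not in these 300 bases.

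Across the sorted libraries the 4 genes followed different courses. In order of stage from E11.5 to E14.5, Matn1 stood at 0.0952 CPM (3 UMIs, interval 0.0196 to 0.278), 0.113 (5 UMIs, 0.0367 to 0.264), 38.1 and 73.0, followed by 515 in the E16.5 proximal library and 33.5 in the E16.5 distal library. In the whole limb libraries Matn1 was at 0.312 (16 UMIs) and 0.487 (25 UMIs). Matn1 was therefore near the limit of detection up to E12.5, and its 4 lowest libraries, both early sorted ones and both whole limb ones, had neighbouring intervals that overlapped. The step from E12.5 to E13.5 measured 337-fold (144 to 1039), the widest step between neighbouring stages in the family, and it coincides with the change of dissociation enzymes.

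Matn2, the member best known outside cartilage, was higher at each successive stage. Its level in the first 4 sorted stages was 2.16, 4.77, 12.1 and 31.0 CPM, then 79.9 in the E16.5 proximal library and 115.7 in the distal one, against 0.565 and 0.682 in whole limbs. Each step along the sorted stages up to the E16.5 proximal library lay between 2.21-fold and 2.58-fold, and the E16.5 distal library stood 3.73-fold above E14.5 (3.61 to 3.86). The intervals of both whole limb libraries overlapped and lay below those of every sorted library.

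Matn3 stayed low until late. It stood at 1.78, 1.47, 4.36 and 3.58 CPM in the first 4 sorted stages, then at 42.4 in the E16.5 proximal and 19.7 in the E16.5 distal library, with 4.93 and 4.07 in whole limbs. The E13.5 level was not separable from either whole limb library by its interval, nor E11.5 from E12.5. Against E14.5, the E16.5 proximal library held 11.8-fold more Matn3 (10.8 to 13.01).

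Matn4 was the early member and, in levels summed over all kept cells, the only one that peaked in mid-course among these libraries. Its level in the first 4 sorted stages was 17.6, 96.1, 413 and 189 CPM, then 124 in the E16.5 proximal library and 73.5 in the distal one, against 5.55 and 6.04 in whole limbs. It was 5.48-fold higher at E12.5 than at E11.5 (5.01 to 5.99), a further 4.29-fold higher at E13.5 (4.15 to 4.44) and then 2.19-fold lower at E14.5 (2.15 to 2.23). The 2 whole limb libraries overlapped in their intervals, and all 6 sorted libraries lay above them and apart from each other.

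**Figure D1:**
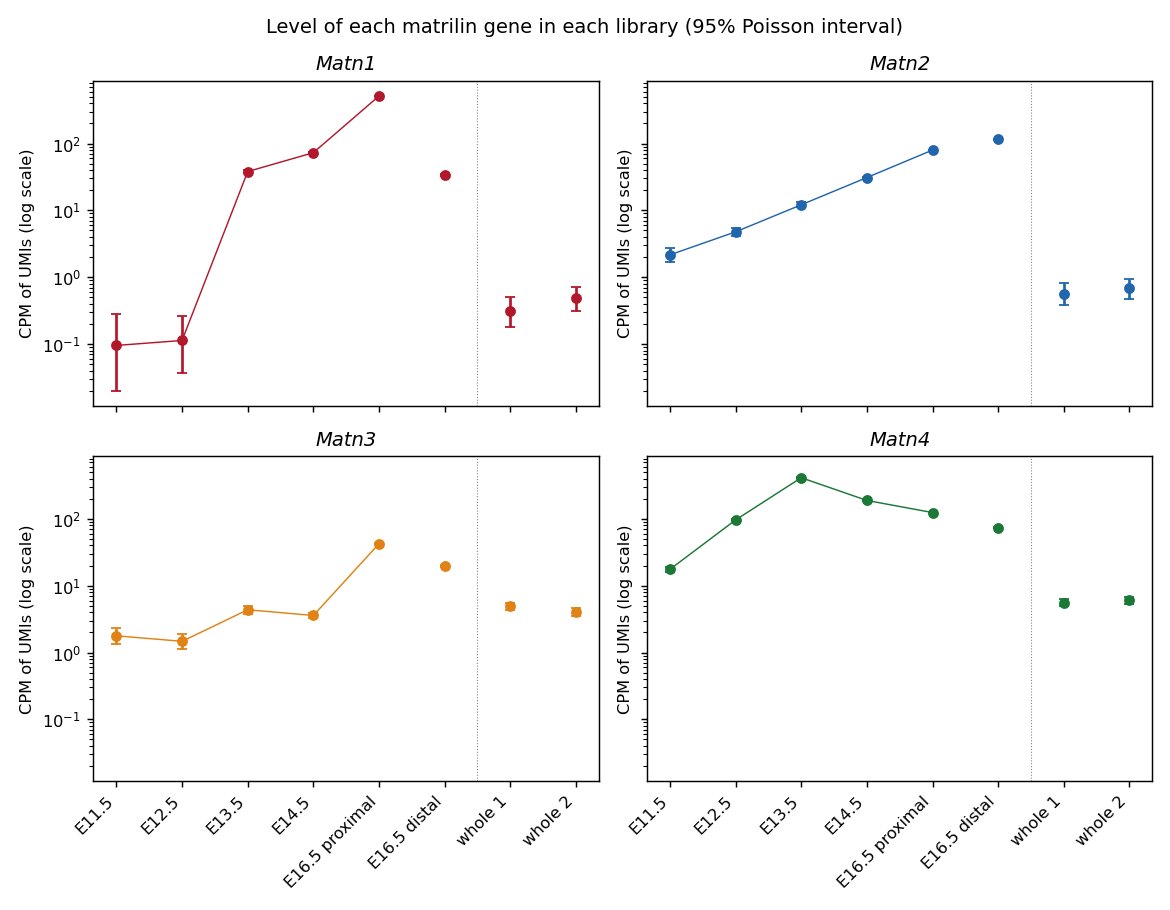
Level of each matrilin gene (CPM, log scale) in each library, with exact Poisson 95% intervals. Lines join the sorted libraries of undivided forelimbs, E11.5 to E14.5, and the E16.5 proximal segment. The E16.5 distal library stands alone, and the whole limb libraries are right of the dotted line. Matn4 is highest at E13.5 (413), Matn1 and Matn3 in the E16.5 proximal library (515 and 42.4) and Matn2 in the E16.5 distal library (115.7).

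Shares of all kept cells with a UMI were compared after each cell was thinned to 3000 UMIs. From E11.5 to E14.5 Matn4 was detected in 5.12%, 13.6%, 31.5% and 14.4% of cells, then in 10.7% in the E16.5 proximal library and 7.81% in the distal one (10.8%, 21.7%, 42.0%, 26.4%, 17.9% and 15.7% at full depth). Matn2 reached 19.5% and 25.2% of the E16.5 proximal and distal cells (60.6% and 65.4% at full depth). Matn1 was in 9.21% and 2.12%, and Matn3 in 5.35% and 2.11% (21.3%, 3.21%, 9.69% and 3.94% at full depth). Matn2 was thus the most widely detected member at E16.5 although Matn1 gave more UMIs in the proximal library, 121045 against 18764. The highest count in a single cell was 641 UMIs for Matn1 and 30 for Matn2 in that library.

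With 1 library a stage, no test between stages was made, and the share of all genes past 2-fold serves as background, counted over genes with at least 10 CPM in the higher library. From E11.5 to E12.5 only Matn4 met that level, and it was 2-fold or more higher, as were 2.20% of genes, with 1.06% lower. From E12.5 to E13.5 all 3 counted members were higher (1.58% of genes higher, 1.79% lower). From E13.5 to E14.5, of 3 counted members, Matn2 was higher and Matn4 lower (4.54% and 5.77% of genes). From E14.5 to the E16.5 proximal library Matn1, Matn2 and Matn3 were higher and Matn4 was 1.52-fold lower, short of the 2-fold limit (7.01% and 6.94%). From E14.5 to the E16.5 distal library Matn2 and Matn3 were higher and Matn1 and Matn4 lower (8.46% and 6.31%). Over the whole interval from E11.5 to the E16.5 proximal library all 4 members were higher, against 13.3% of genes higher and 30.3% lower, by 5411-fold for Matn1 (1852 to 26238, resting on 3 early UMIs), 37.0-fold for Matn2, 23.9-fold for Matn3 and 7.08-fold for Matn4. With every cell thinned to 3000 UMIs the Matn3 log2 ratio was 5.53 (4.60 to 6.66, resting on 9 UMIs at E11.5) against 4.58 at full depth (4.20 to 4.98), and these intervals overlapped. Some of these comparisons share a library and are not independent of each other. Those that reach E16.5 set a limb segment against undivided forelimbs. In the same interval, cartilage collagens were 2-fold or more higher in 6 of 6 counted genes, cartilage proteoglycans and matrix proteins in 10 of 10, and chondrogenic transcription factors in 1 of 4 with 3 lower.

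The family changed its leading member along this course. From E11.5 to E14.5 Matn4 gave 81.3%, 93.8%, 88.3% and 63.7% of all matrilin UMIs, but 16.3% in the E16.5 proximal and 30.3% in the E16.5 distal library. Matn1 held 67.6% of the family's UMIs in the E16.5 proximal library and 13.8% in the distal one, where Matn2 led with 47.7%. In the whole limb libraries Matn4 (48.9% and 53.5%) and Matn3 (43.4% and 36.1%) shared most of the total. The summed family level was 21.6, 102, 467, 296, 762 and 242 CPM in the sorted libraries in the order above, and 11.4 and 11.3 in whole limbs.

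**Figure D2:**
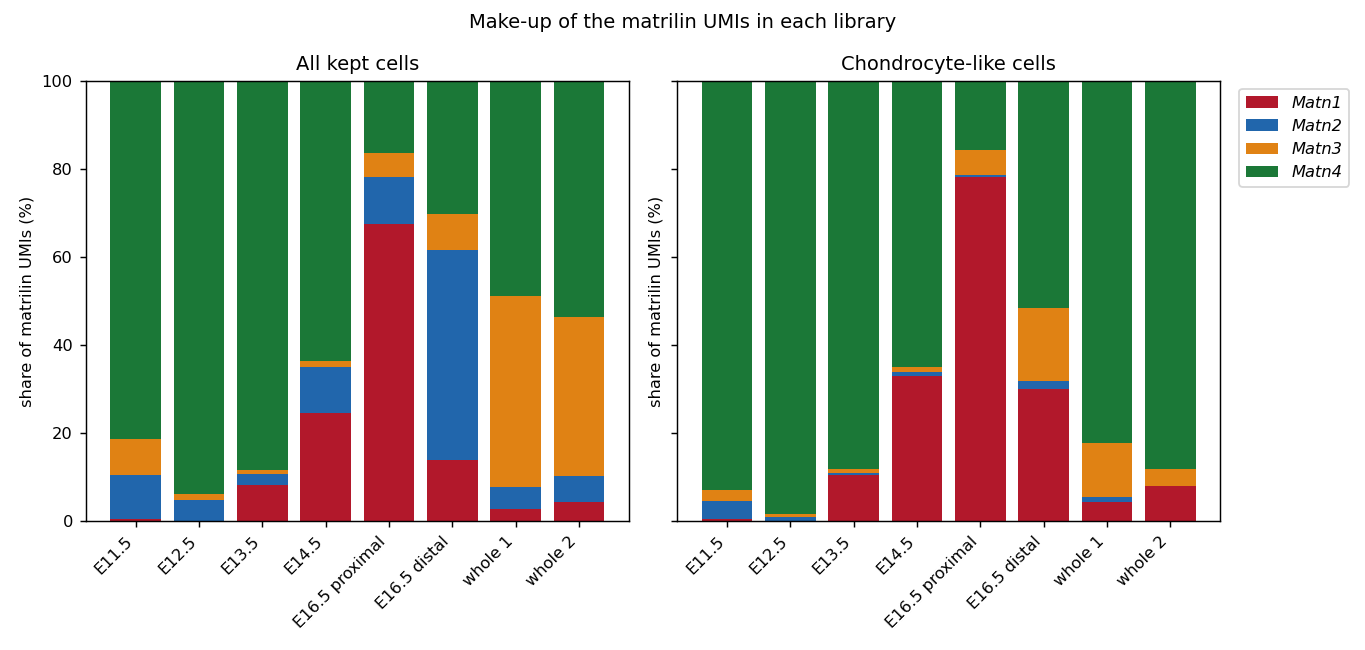
Share (%) of the matrilin UMIs given by each member in each library, over all kept cells (left) and over chondrocyte-like cells (right). Matn4 makes up most of the bars of the sorted libraries up to E14.5, Matn1 makes up 67.6% of all cells' matrilin UMIs in the E16.5 proximal library, and Matn2 is a large share in all cells of the E16.5 distal library (47.7%) but a small one in chondrocyte-like cells (1.68%).

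To place the genes in cell classes, each library was clustered without the matrilin genes and clusters were named from marker lists. Of 142 clusters 72 received a name, with at least 3 markers raised (cartilage collagens, Acan, Hapln1, Lect1 and Sox9 for the chondrocyte-like class). A chondrocyte-like class of 450 to 1159 cells was found in every library. It made up 36.5%, 20.6%, 18.9% and 9.35% of kept cells in the sorted libraries from E11.5 to E14.5. In the E16.5 proximal and distal libraries it made up 6.35% and 5.33%. Levels summed over all cells therefore also reflect a changing share of this class. One chondrocyte-like cluster each at E11.5 (488 cells), E12.5 (475 cells) and E13.5 (521 cells) was led by cell division genes, with 4, 5 and 7 of 9 chondrocyte markers raised and all 8 mitotic markers raised as well. Mitotic markers gave a cluster its name only where no other class had 3 raised markers, so these clusters kept the chondrocyte-like name although no chondrocyte marker was among their 10 leading genes. The remaining chondrocyte-like clusters at E11.5 and E12.5, and one of 593 cells at E14.5, took the name only through a step added after the clusters were seen. In the sorted E11.5 class Sox9 was at 604 CPM and the tenocyte marker Scx at 155. Acan was at 2.29 (24 UMIs) and Hapln1 at 0.286 (3 UMIs), against 1546 and 1803 in the E16.5 proximal class. The class is therefore not made up alike at each stage, and its levels, given side by side, describe where the genes are counted and are not tests.

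In chondrocyte-like cells Matn4 stood at 42.4, 373, 1519 and 1528 CPM in the first 4 sorted stages, 1443 in the E16.5 proximal and 1029.7 in the E16.5 distal library. The intervals at E13.5 and E14.5 overlapped (1493 to 1545 and 1505 to 1552), but at 3000 UMIs per cell Matn4 was detected in 84.0% of the class at E13.5 and 68.0% at E14.5 (91.3% and 80.0% at full depth), and both levels pool unlike clusters, described further on. Without the clusters led by cell division genes, a choice added after the data were seen, Matn4 in the class was at 52.2, 568 and 2275 from E11.5 to E13.5. In the same order Matn1 was then at 0, 0.558 and 293.5, Matn2 at 1.80, 1.12 and 4.39, and Matn3 at 0.400, 0.558 and 13.2. The Matn3 levels up to E12.5 rest on 2 UMIs each. The Matn4 level at E13.5 was then above that of the whole E14.5 class. That class pools clusters with Matn4 at 3641 and 857, so the order depended on the clusters counted. Over the whole class, Matn1 went from 0.191 and 0.449 to 179.9, 779 and 7219 in the E16.5 proximal library, and was 601 in the distal one. Matn3 stood at 1.15, 2.58, 17.9, 28.9, 533 and 334 in these 6 libraries. Matn2 ran from 1.91 and 3.03 to 7.47, 16.7, 27.5 and 33.6, the lowest of the 4 from E13.5 on. Within chondrocyte-like cells Matn4 gave 92.9% of the family's UMIs at E11.5 and 98.4% at E12.5, and Matn1 78.3% in the E16.5 proximal library.

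In the whole limb libraries, the chondrocyte-like class held Matn4 at 39.5 and 58.7 CPM, and Matn1 at 2.10 (11 UMIs) and 5.39 (17 UMIs). Of all Matn4 UMIs in these libraries, 72.6% and 59.7% fell in it. Matn3 was spread differently there. Over the 15 clusters of at least 50 cells in each library it ranged from 1.84 to 11.7 (median 4.97) in whole 1 and from 0.795 to 6.53 (median 3.70) in whole 2, with 5.92 and 2.54 in the chondrocyte-like class. At E11.5, Matn3 was thus not concentrated in the chondrocyte-like cells of whole limbs, and in the sorted library it was at 1.15 inside that class and 2.09 outside it.

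The 3 cartilage members were higher in this class than in all other cells from E13.5 on, but not every fold difference rose with stage. Matn1 was 47.0-fold higher in chondrocyte-like cells than in all others at E13.5, 78.9-fold at E14.5, 73.0-fold in the E16.5 proximal and 137-fold in the E16.5 distal library. Matn3 was 16.3-fold, 21.9-fold, 44.7-fold and 93.2-fold higher in the same order. Without the E13.5 cluster led by cell division genes, Matn1 in the class was at 293.5 CPM, against 3.83 outside the whole class. No rise of this Matn1 difference from E13.5 to E14.5 is therefore read. At E12.5, 21 of the 23 Matn3 UMIs of the class were in the cluster led by cell division genes, and Matn3 was at 2.58 CPM in the class with it and 0.558 without it, against 1.19 outside the class, so no direction is read there. Matn4 was 8.17-fold higher already at E11.5 and 14.2-fold, 10.4-fold and 22.2-fold higher in the next 3 stages, then 34.1-fold and 42.3-fold in the E16.5 libraries. Matn2 went the other way and was 3.02-fold and 3.56-fold lower in chondrocyte-like cells than elsewhere at E16.5. The proximal values depended on an unnamed cluster of 302 cells with all 9 chondrocyte markers raised, described further on. With it joined to the class, a choice added after the data were seen, the proximal levels were 352-fold higher than in the remaining cells for Matn1, 163-fold for Matn3 and 44.6-fold for Matn4, each then above the distal value, and 1.79-fold lower for Matn2.

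The chondrocyte-like class held unlike clusters. At E14.5, its smaller cluster of 191 cells had Matn1 at 2959 CPM, Matn3 at 93.8 and Matn4 at 3641, while its larger cluster of 593 cells had 85.6, 8.26 and 857. At E13.5 a cluster of 638 cells led by cartilage genes and the one of 521 cells led by cell division genes had Matn1 at 293.5 and 91.3 and Matn4 at 2275 and 929.7, but Matn3 at 13.2 and 21.6. Matn3 thus differed in its order from Matn1 and Matn4 at E13.5 and shared it at E14.5. A joint-like cluster of 497 cells at E13.5, led by Gdf5 (a growth factor of forming joints) and with cartilage markers also raised, had Matn4 at 1014, Matn1 at 21.0 and Matn3 at 3.003. In that cluster Matn4 was close to its level in the second chondrocyte-like cluster while Matn1 was lower.

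**Figure D3:**
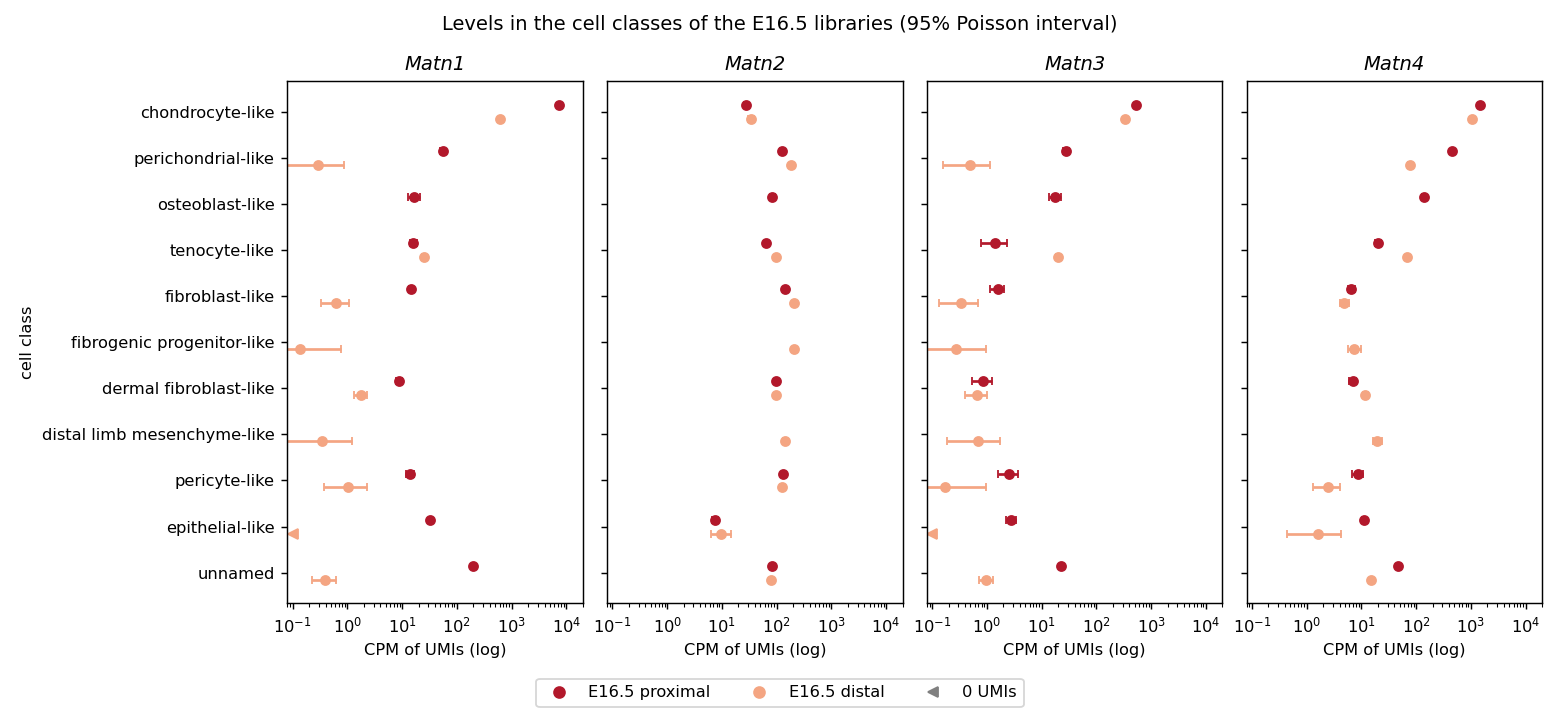
Level of each matrilin gene (CPM, log scale) in the cell classes of the E16.5 proximal and E16.5 distal libraries. A left-pointing triangle is drawn where 0 UMIs were counted, and no point where a library had no such class. Chondrocyte-like cells reach 7219 for Matn1, 533 for Matn3 and 1443 for Matn4 in the E16.5 proximal library, whereas Matn2 is highest in fibroblast-like and fibrogenic progenitor-like cells (209 and 210.2 in the E16.5 distal library).

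At E16.5, Matn1 and Matn3 were largely counted in chondrocyte-like cells, 705 in the proximal and 450 in the distal library. This class held 81.9% of the Matn1 UMIs in the proximal library and 87.6% in the distal one, and 73.5% and 82.7% of the Matn3 UMIs. For Matn4 the shares were 67.9% and 68.5%, and for Matn2 2.01% and 1.42%. The distal shares depended on the clustering. With both E16.5 libraries clustered together, 21 distal cells were chondrocyte-like and held 21.0% of the distal Matn1, 10.6% of the Matn3 and 4.70% of the Matn4 UMIs, while the proximal shares were 83.1%, 76.1% and 79.2%. A further proximal cluster of 302 cells, unnamed because the tenocyte marker Scx and no chondrocyte marker was among its 10 leading genes, with all 9 chondrocyte, all 8 mitotic and 5 tenocyte markers raised, had Matn1 at 2379 CPM, Matn3 at 265, Matn4 at 519 and Matn2 at 80.0. With it included, the proximal shares became 97.3% for Matn1, 94.3% for Matn3, 81.8% for Matn4 and 5.34% for Matn2.

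With each library clustered on its own, a larger share of Matn4 than of Matn1 or Matn3 UMIs lay outside the chondrocyte-like class. Clusters named from raised Sox5, Sox6 and Dkk3 were called perichondrial-like, after the sheath around cartilage. In these cells Matn4 was 457 CPM in the proximal library (441 to 473) and 77.8 in the distal one (72.4 to 83.4). Matn1 was at 55.3 and 0.295 there, and Matn3 at 27.8 and 0.492. The cartilage collagen Col2a1 was at 2845.5 and 159.6 in the same 2 classes, whose leading genes also differed, and its part in these levels was not tested. In chondrocyte-like cells Col2a1 was at 3064 at E14.5 and 23426 in the E16.5 proximal library. The proximal perichondrial-like class may therefore hold cartilage cells. Proximal osteoblast-like cells, 238 in number, held Matn4 at 138, Matn3 at 17.7 and Matn1 at 16.6. Distal tenocyte-like cells held Matn4 at 67.6, Matn1 at 24.9 and Matn3 at 20.02, together with Col2a1 at 431. At 3000 UMIs per cell, Matn1 and Matn3 were each detected in 1.99% of these 957 cells and Matn4 in 8.46%. At full depth the shares were 3.03% for Matn1, 3.87% for Matn3 and 18.2% for Matn4. The Matn1 and Matn3 levels thus came from a small part of the class.

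Matn2 belonged to the connective tissue classes. It was at 140.2 CPM in proximal and 209 in distal fibroblast-like cells, 125 and 182 in perichondrial-like cells, 132 and 126 in pericyte-like cells, and 97.0 and 96.6 in dermal fibroblast-like cells. In distal fibrogenic progenitor-like cells it was 210.2. Tenocyte-like cells held 64.9 and 98.9. After thinning to 3000 UMIs, Matn2 was detected in 30.8% of proximal and 40.1% of distal fibroblast-like cells (77.4% and 87.7% at full depth, medians 18632 and 19398 UMIs), compared with 1.496% and 2.94% of epithelial-like cells (14.3% and 11.8%, medians 37772 and 29688 UMIs). Its highest cluster was a fibroblast-like one with Pi16 and Ly6a among its leading genes in both segments, at 145 in the proximal and 254 in the distal library, and fibroblast-like cells were higher in the distal library while dermal fibroblast-like cells were not separable.

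Epithelial-like cells, which should lack the cartilage members, served as a comparison for low levels. They held Matn1 at 32.2 CPM, Matn4 at 11.2 and Matn3 at 2.76 in the proximal library (936 cells), and 0, 1.63 and 0 in the distal one (68 cells). At 3000 UMIs per cell, 2.78% of proximal epithelial-like cells had a Matn1 UMI against 92.8% of chondrocyte-like cells (21.9% and 95.7% at full depth, medians 37772 and 18041 UMIs). Per 100 Col2a1 UMIs there were 28.5 Matn1 UMIs in the epithelial-like and 30.8 in the chondrocyte-like cells, and per 100 Matn1 UMIs 8.57 and 7.39 Matn3 UMIs and 34.8 and 19.99 Matn4 UMIs. The 10 epithelial-like cells with most Matn1 held 80.3% of the 1155 Matn1 UMIs of that class, and the median among its 205 cells with Matn1 was 1 UMI. Free RNA and doublets were not told apart. Proximal fibroblast-like (14.4), dermal fibroblast-like (8.81), tenocyte-like (15.9), osteoblast-like (16.6) and pericyte-like (14.1) cells had Matn1 levels below 32.2. The level of 32.2 rested mostly on 10 cells, so nothing is read from that order. At 3000 UMIs per cell the shares of the classes just listed with Matn1 were 3.14%, 1.55%, 2.30%, 5.46% and 2.17%. All their intervals overlapped that of the epithelial-like cells (1.82% to 4.04%). Expression of Matn1 in these classes was thus not separable from that comparison, which does not show its absence.

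The 2 segments of the E16.5 limb differed most in Matn1. Over all cells Matn1 was 15.4-fold lower in the distal library (14.9 to 15.8), Matn3 2.15-fold lower (2.07 to 2.24) and Matn4 1.69-fold lower (1.65 to 1.73), while Matn2 was 1.45-fold higher (1.42 to 1.48). Of the 4 members, 2 were thus 2-fold or more lower and 0 higher, against 4.13% and 4.90% of all genes. The segments are 1 library each, no test of the difference was made, and segment cannot be told apart from library or from the Cell Ranger version (3.0.2 proximal, 6.0.1 distal).

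Within chondrocyte-like cells, Matn1 was at 7219 CPM in the proximal and 601 in the distal library, 12.01-fold lower (11.7 to 12.4). Only 0.302% of the 8291 genes counted had a ratio as low or lower. Matn3 was 1.60-fold lower (533 and 334), Matn4 1.40-fold lower (1443 and 1029.7) and Matn2 1.22-fold higher (27.5 and 33.6). A ratio as low or lower was found in 9.20% of genes for Matn3, 14.7% for Matn4 and 54.1% for Matn2. Matn2 thus lay near the middle of all genes counted. One member of 4 was therefore 2-fold or more lower and 0 were higher, compared with 4.80% and 13.3% of genes. Cartilage matrix genes were mostly lower in the distal class too. Cartilage collagens were 2-fold or more lower in 6 of 7 genes and cartilage proteoglycans and matrix proteins in 10 of 11, with Col2a1, the main fibrillar collagen of cartilage, 2.94-fold lower and Acan, the large aggregating proteoglycan, 2.07-fold lower. Chondrogenic transcription factors were not, with 0 of 6 counted genes 2-fold or more lower, 1 higher and a median ratio of 1.43. Under other definitions of the class the Matn1 log2 ratio (-3.59) ranged from -3.68 to -1.14, the latter with both libraries clustered together, which left 21 distal cells, while the smaller differences of Matn2, Matn3 and Matn4 changed direction under some of them.

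Set among these 18 cartilage matrix genes, whose median was 2.73-fold lower, the matrilins took both ends. Matn1 had a lower distal over proximal ratio (0.0833) than 16 of the 18, with only Col10a1, the collagen of hypertrophic cartilage (93.3 against 0.257 CPM, the latter 2 UMIs, ratio 0.00275 with an interval of 0.000333 to 0.00996), and Epyc (0.0407) below it. Matn3 (0.626) and Matn4 (0.714) had higher ratios than all 18, of which Ucma was highest (0.594), with an interval that overlapped that of Matn3. Matn3 and Matn4 were near Sox9 (0.716), the transcription factor that defines chondrocytes.

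**Figure D4:**
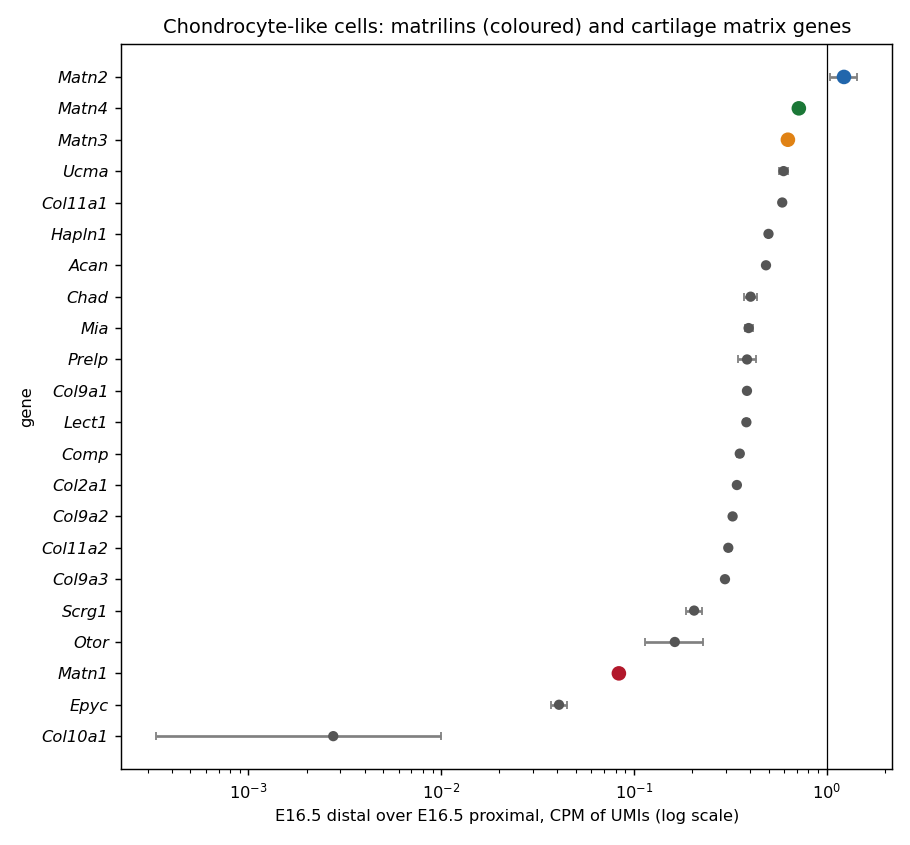
Ratio of E16.5 distal over E16.5 proximal levels in chondrocyte-like cells for the matrilin genes and the cartilage matrix genes (log scale), with exact 95% counting intervals. Matn1 lies at 0.0833, below 16 of the 18 cartilage matrix genes, and Matn3 (0.626), Matn4 (0.714) and Matn2 (1.22) lie above all 18.

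Because the distal cells carried fewer cartilage transcripts, cells of both libraries were also grouped by their summed UMIs of Col2a1, Col9a1, Col9a2, Col9a3 and Acan at 3000 UMIs per cell, a grouping added after the data were seen. Among cells with 10 to 29 such UMIs (169 proximal and 122 distal), the intervals of the distal over proximal ratio spanned 1 for Matn1 (0.656, interval 0.353 to 1.18, from 38 and 18 UMIs) and for Matn3 (0.723, 0.328 to 1.51, from 23 and 12 UMIs), while Matn4 was 1.53-fold higher distally (1.30 to 1.80). Among cells with 30 to 99 such UMIs (326 proximal and 197 distal), Matn1 was at 5.24 and 2.36 UMIs per cell, 2.22-fold lower distally (2.01 to 2.47). Matn3 turned direction, at 0.663 and 1.60 UMIs per cell, 2.42-fold higher distally (2.03 to 2.89), and Matn4 did too, 1.35-fold higher (1.24 to 1.47). Among cells with 100 or more (579 proximal and 39 distal), Matn1 was at 27.0 and 7.03, 3.84-fold lower (3.41 to 4.35), Matn3 was 1.27-fold higher (1.03 to 1.56) and Matn4 1.34-fold lower (1.13 to 1.59). In cells with at least 30 cartilage UMIs the lower distal Matn1 level was thus present in both bins but smaller, and Matn3 was higher distally in both. Median cartilage UMIs were 65 proximal and 58 distal in the 30 to 99 bin, and 153 and 134 in the bin above. The bins therefore did not make cartilage content equal, and its part in the remaining differences was not tested. Matn2 in these bins rested on few UMIs. It was 3.09-fold lower distally in the 10 to 29 bin (1.71 to 5.995, from 60 and 14 UMIs). In the 30 to 99 bin it was 2.97-fold lower (1.58 to 6.07, from 59 proximal and 12 distal UMIs). Its interval spanned 1 in the bin above, from 38 and 2 UMIs. The direction in the bins below 100 was opposite to that in the whole class.

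The members were detected at different cartilage content. Matn4 was already detected in cells with few cartilage UMIs, in 18.4%, 50.5%, 69.5% and 44.4% of the cells with 3 to 9 of them in the first 4 sorted stages, and 23.3% and 26.9% in the E16.5 proximal and distal libraries. In cells with 0 cartilage UMIs the Matn4 shares were 1.59%, 2.72%, 9.48%, 5.20%, 1.12% and 2.82% in the same order, each below the share at 3 to 9. In the 3 to 9 bin Matn1 was detected in at most 3.33% of the cells of any sorted library. That share, in the proximal library, was near the 2.05% of cells with 0 cartilage UMIs, whereas at E13.5 and E14.5 the shares of 3.15% and 2.88% lay above 0.495% and 0.548% with separate intervals. Matn1 was detected in more of the cells with 10 to 29 cartilage UMIs (25.2% and 28.5% at E13.5 and E14.5, 11.8% and 6.56% in the E16.5 libraries) and in most cells with 30 to 99 (83.3%, 90.2%, 62.3% and 62.9%). Matn3 lagged behind it at E13.5 and E14.5, with 13.9% and 18.5% of the cells with 30 to 99, and reached 34.0% in the proximal and 63.5% in the distal library, where it was within the counting interval of Matn1. All of these shares are at 3000 UMIs per cell.

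**Figure D5:**
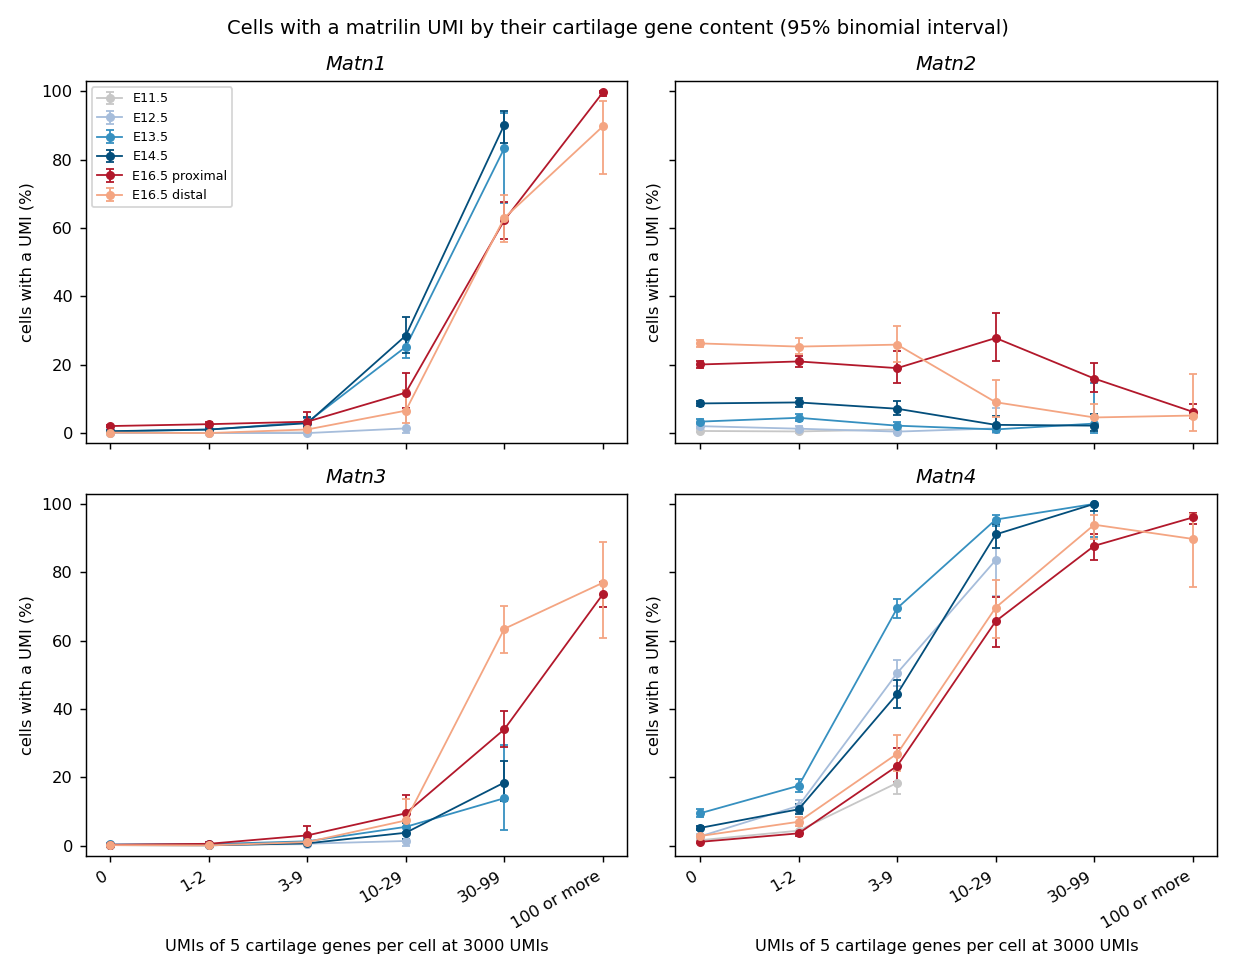
Share (%) of cells with a UMI of each matrilin gene at 3000 UMIs per cell, by the cell's summed UMIs of 5 cartilage genes, for each sorted library (bins of at least 20 cells). Matn4 rises at 3 to 9 cartilage UMIs (69.5% at E13.5), Matn1 at 10 to 99 and Matn3 after it, except in the E16.5 distal library, where Matn3 and Matn1 are close (63.5% and 62.9% at 30 to 99), while Matn2 is low in the highest bins.

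Cells could hold several members at once. At 3000 UMIs, 92.8% of proximal chondrocyte-like cells had Matn1, 64.1% Matn3 and 93.3% Matn4, and 59.6% had all 3 (90.9% at full depth). Distally the shares were 33.3%, 32.4% and 70.2%, and 22.4% had all 3 (37.1% at full depth). Matn4 without Matn1 was found in 66.4% of chondrocyte-like cells at E13.5, 38.4% at E14.5, 5.39% in the E16.5 proximal and 39.3% in the distal library. Matn1 without Matn4 was at most 0.383% up to E14.5 in the sorted libraries, and 4.82% and 2.44% at E16.5. Among distal chondrocyte-like cells with Matn3, 73.3% also had Matn1, compared with 14.1% of those without it. In the proximal class these shares were 96.9% and 85.4%. Cells were not matched on cartilage content here, and its part in these shares was not tested.

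Likeness to other genes was measured as Pearson's r of log2(CPM + 1) over 99 clusters of the sorted libraries with at least 50 cells, among 6837 genes, where clusters share libraries and depth and the values are a description. The genes most like Matn1 were Ncmap (0.896), Foxa3 (0.886), Susd5 (0.883), Col11a2 (0.868) and Col9a3 (0.853). For Matn3 they were Foxa3 (0.893), Susd5 (0.873), Ncmap (0.859), 3110079O15Rik (0.853) and Trpv4 (0.845). For Matn4 they were Fzd9 (0.869), Mia (0.855), Col9a2 (0.854), Col2a1 (0.836) and Lect1 (0.809). For Matn2 they were Col5a1 (0.936), Col5a2 (0.930), Rnase4 (0.920), Col6a2 (0.917) and Col6a3 (0.915). Matn1 and Matn3 shared 3 of their 5 nearest genes and had r = 0.816 with each other, against 0.618 for Matn1 with Matn4 and 0.591 for Matn3 with Matn4. Matn2 had 0.195 with Matn1, -0.0037 with Matn3 and -0.202 with Matn4.

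At E11.5 the sorted library could be tested against the 2 whole limb libraries over summed counts of mesenchymal cells, with the spread taken from the whole limb pair and the sorted library assumed to vary alike. The labels number that pair as replicates without saying whether they came from separate embryos, so the p-values may measure technical spread. Of 15102 genes tested, 52.4% were called at an adjusted p of 0.05 (edgeR's quasi-likelihood test, Benjamini-Hochberg), 26.3% higher and 26.1% lower in the sorted library, so a call on its own is common here. All 4 members were called. Matn4 was at 17.6 CPM in the sorted library against 5.93 and 6.52, a log2 difference of 1.31 (adjusted p = 2.65e-18, edgeR). Matn2 was at 2.16 against 0.619 and 0.741, a log2 difference of 1.48 (adjusted p = 4.96e-05, edgeR). Both were higher in the sorted library than in either whole limb library. Matn3 was lower, at 1.78 against 4.97 and 4.17, a log2 difference of -1.54 (adjusted p = 1.29e-10, edgeR). Matn1 was lower too, at 0.0952 (3 UMIs) against 0.341 and 0.530 (16 and 25 UMIs), a log2 difference of -2.34 (adjusted p = 0.00667, edgeR), and this call was lost with DESeq2 (adjusted p = 0.193), with limma-voom (0.0575) and without a filter on low counts (0.0839). The Matn2 call was lost with DESeq2 (adjusted p = 0.0765). Chondrocyte-like cells made up 36.5% of the sorted mesenchymal cells and 15.1% and 10.9% of those of whole limbs, and the part of this difference in the levels was not tested. Of the 1155 sorted cells of that class, 488 were in the cluster led by cell division genes, and the share without it was 21.1%. The sorted class held Acan at 2.29 CPM and Hapln1 at 0.286, so its name at E11.5 does not stand for formed cartilage. The groups also differed in limb position. Over all kept cells, 6 markers of distal limb mesenchyme summed to 90.8 CPM in the sorted library and to 1143.5 and 1027.6 in whole limbs. The paper found tdTomato+ cells mostly in proximal forelimb fragments at E11.5. The part of limb position in the matrilin levels was not tested. The methods name a reagent kit for E11.5 without naming the whole limb libraries, so a difference in kit or in sorting cannot be told apart from the groups.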

How the data were processed

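The 8 matrices deposited by the authors hold UMI counts, not normalized, which they made with Cell Ranger on an altered mm10 genome (3.0.2 in 5 sorted libraries and 6.0.1 in the E16.5 distal library per the file headers, none named there for whole limbs), and the study's reporting summary names a further version for the single-cell data. Groups came from the GEO labels. The methods assign the v2 reagent kit to libraries up to E13.5 and v3 to later ones, without naming the whole limb libraries, and one enzyme mixture to dissociation at E11.5 and E12.5 and another later. The members and all gene lists were chosen with earlier results of these data known.

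Barcodes with at least 3000 UMIs and at most 10% mitochondrial UMIs were kept (53085 of 57469). Values were summed per library and class as CPM with exact Poisson 95% intervals. Shares of cells used exact binomial intervals at 3000 UMIs per cell, and ratios of libraries exact conditional ones. Each library was clustered on its own (scanpy 1.11.5, leidenalg 0.10.2, resolution 1) without matrilin, mitochondrial, sex-linked, haemoglobin or transgene features. A cluster was named from markers raised 2-fold and detected in 10% of its cells, at least 3 per class. Mitotic markers named a cluster only where no other class could. Where another non-mitotic class had more markers among the 10 leading genes, the cluster stayed unnamed, or, by a step added after the clusters were seen, took that class's name if more of its markers were raised. The doublet caller marked at most 0.126% of the cells of a library and was taken not to have worked, and the top 5% of doublet scores were left out as an alternative. The E11.5 test used edgeR 4.0.16 on UMI counts summed over cells outside epithelial-, endothelial-, immune-, erythroid-, glial- and muscle-like clusters (3165, 5110 and 5336 cells) with TMM scaling and a filter on low counts. On simulated counts for that comparison (15085 genes, 100 changed genes per fold size), edgeR recovered 76% of 2-fold and 93% of 4-fold changes with 9 false calls. The simulation gave every gene and library the same spread, estimated from these libraries. It therefore cannot show whether the sorted library varies like the whole limb pair. Few genes were changed in it, whereas 52.4% were called in the real comparison. Named genes were the 4 members, genes of fixed lists, markers and the 5 genes most like each member. Alternatives were DESeq2 1.42.0, limma-voom (limma 3.58.1), no filter, other clusterings, cell filters, thinning and scalings.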

Additional observations from a re-analysis of the deposited data

Results flagged for a closer look

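Matrilin UMIs were also counted in barcodes left out by the cell filter, most of them shallower than 3000 UMIs, which no comparison above uses. In 18 of the 32 pairs of gene and library the count was above the 3 UMIs that a count of 0 allows, and the values below are CPM over those barcodes.

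Matn4 was counted in them from E11.5 to E14.5 at 57.6, 132, 726 and 436, then at 129 in the E16.5 proximal, 87.6 in the E16.5 distal and 11.1 in the whole 1 library. Matn1 was at 34.2 at E13.5, 79.6 at E14.5, 309 in the E16.5 proximal and 60.9 in the E16.5 distal library. Matn2 was at 10.3, 20.2, 41.6 and 94.0 in the same 4 libraries. Matn3 was at 2.75 at E11.5, 14.5 in the E16.5 proximal and 26.7 in the E16.5 distal library. Matn4 was thus highest at E13.5 in these barcodes as in the kept cells. From E11.5 to E14.5 its level in them was above that of kept cells (17.6, 96.1, 413 and 189). Matn2 in both E16.5 libraries was below it, with 79.9 proximal and 115.7 distal in kept cells. At E11.5 the filter kept 74.2% of sorted barcodes but 97.7% and 98.6% of the whole limb ones. The E11.5 test was not rerun without it.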

How the results depend on the processing

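Over all cells, the ratios of E16.5 proximal to E11.5 and of E16.5 distal to proximal kept their direction for every member without the cell filter, at 3000 UMIs per cell, without epithelial-like clusters, without the top 5% doublet scores and without ribosomal and mitochondrial genes, although the Matn3 log2 ratio of E16.5 proximal to E11.5 was 4.58 at full depth and 5.53 (4.60 to 6.66) when thinned. In chondrocyte-like cells the Matn1 log2 ratio of distal to proximal (-3.59) stayed negative, at -3.27 and -2.79 with Leiden resolutions 0.5 and 2, -1.14 with both E16.5 libraries clustered together, -3.25 over cells with at least 3 chondrocyte markers, -3.68 without the top doublet scores, and, in settings chosen after seeing the data, -3.18 with the unnamed proximal cluster joined and -1.15 and -1.94 in cells matched on 30 to 99 and on 100 or more cartilage UMIs. Clustering both libraries together left 963 proximal but 21 distal chondrocyte-like cells. The Matn2 ratio (0.29) turned to -0.36, -0.31, -0.58, -0.47, -1.57 and -0.36 at resolution 0.5, resolution 2, joint clustering, the joined cluster and the 2 matched sets. The Matn3 ratio (-0.68) turned to 0.84, 1.28 and 0.34 with joint clustering and the 2 matched sets, and Matn4 (-0.49) to 0.43 in the 30 to 99 set. With the unnamed proximal cluster joined, the Matn3 ratio shrank to -0.39 and the Matn4 ratio to -0.11. These smaller differences thus depended on how the class was drawn. Leaving out the chondrocyte-like clusters led by cell division genes, chosen after seeing the data, moved Matn1 in the class at E13.5 from 179.9 to 293.5 CPM, Matn4 at E12.5 from 373 to 568, Matn2 at E12.5 from 3.03 to 1.12, and Matn3 from 1.15 to 0.400 at E11.5 and from 2.58 to 0.558 at E12.5. The cause was not tested.

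At E11.5, 7916 genes were called by edgeR, 4755 with no filter on low counts and 4699 with DESeq2. All members kept their direction in every setting. Leaving out either whole limb library left no spread to test. Log2 ratios of plain CPM then ranged from -2.48 to -1.84 for Matn1, 1.54 to 1.80 for Matn2, -1.48 to -1.23 for Matn3 and 1.43 to 1.56 for Matn4. These ratios lack the TMM scaling of the main values, so scaling and left-out library cannot be told apart in them. No paired analysis was possible because only the whole limb group has numbered replicates. Up to E12.5 the sorted libraries hold 3 and 5 Matn1 UMIs, which limits any ratio against them.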
